A study of Mus musculus with 6 samples.

Results

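The respiratory chain genes were the 101 protein-coding rows, of 78409 gene rows in all, whose symbols begin with mt- or follow the naming of the subunits of complexes I to V (Nduf, Sdh, Uqcr, Cox4 to Cox8 and Atp5, without Ndufa4l2). Of these, 13 are encoded by mitochondrial DNA and 88 by nuclear DNA. By name, 45 belong to complex I, 4 to complex II, 9 to complex III, 22 to complex IV and 21 to complex V. RNA was measured in 6 bulk libraries of nephrogenic stroma, the connective tissue cells around the forming nephrons, taken on embryonic day 18 from wild-type CD1 mouse kidneys that were pooled. Cells sorted for the surface protein PDGFRa were cultured for 18 h on silicone (PDMS) coated with bovine fibronectin, a matrix protein that cells attach to. The high adhesion group was plated on coats made at 50000 ng/mL and the low adhesion group on coats made at 500 ng/mL, with 3 libraries each. Both groups carry no genetic change and share the sort and the serum-containing medium, and each of 3 litters gave a library to both.

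The respiratory chain passes electrons from NADH and succinate through complexes I to IV to oxygen, and complex V, the ATP synthase, uses the proton gradient built on the way. Mitochondrial DNA encodes a few core subunits of complexes I, III, IV and V, transcribed as long precursors that are cut apart, while all other subunits, and the whole of complex II, are made from nuclear genes and imported. In the kidney this machinery is best known from tubule cells, whose salt transport needs much ATP. In bulk samples such as these, fewer cells of a type and less RNA per cell cannot be told apart.

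Library totals ran from 12596249 to 13508257 counts, so that 1 count was worth 0.074 to 0.0794 CPM, the count scaled to the library's total. Of the 101 genes, 95 had enough counts to be tested, all 13 mitochondrially encoded and 82 nuclear encoded. Ndufb11b was at 0 counts in all 6 libraries, which allows up to 0.222 to 0.238 CPM per library (3 counts, counting error only). Cox6a2, Cox7a1, Cox7b2, Cox8b and Cox8c had at most 8 counts in any library of either group. The sorted stroma showed its own markers, with Pdgfra at 17.1 to 33.7 CPM and Foxd1, a transcription factor of renal stroma, at 156 to 216 CPM over all libraries. Summed over 7 stromal markers, the level was 2022 to 2146 CPM at high adhesion and 2390 to 2634 CPM at low adhesion. Most of that sum was Col1a1, at 1328.5 to 1398 CPM at high and 1522 to 1649 CPM at low adhesion. Pdgfrb, Meis1 and Col3a1 overlapped between the groups, while Pdgfra, Foxd1, Meis2 and Col1a1 did not. Summed over 3 genes each, nephron progenitor markers were at 32.4 to 51.4 CPM at high adhesion and 27.4 to 45.8 CPM at low adhesion, endothelial markers at 11.001 to 18.8 CPM at high and 13.3 to 17.0 CPM at low adhesion, and leukocyte markers at 5.14 to 12.6 CPM at high and 6.52 to 12.6 CPM at low adhesion. Epithelial markers were at 9.15 to 10.5 CPM at high adhesion and 7.48 to 8.45 CPM at low adhesion, and globin genes at 132 to 269 CPM at high and 162 to 255 CPM at low adhesion. The stromal and epithelial sums did not overlap between the groups; their part in the results on respiratory genes was not tested.

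High adhesion went with slightly lower levels of part of the respiratory chain. In an edgeR quasi-likelihood test with litter as a block, with Benjamini-Hochberg adjustment across the whole set of 14834 tested genes, 10 of the 95 genes fell (10.5%), against 4.83% of all tested genes, and 0 rose, against 4.71%. At an unadjusted p under 0.05, 28 of the 95 were lower and 0 higher, beside 10.7% and 11.2% of all tested genes. Folds of the 10, high over low adhesion, were 0.809 to 0.906. Fitted log2 fold changes had a median of -0.07 over the 95 genes and of 0.00 over all tested genes, and 81 of the 95 were below 0, against 50.4% of all tested genes. The 10 genes that passed were mt-Nd4l and mt-Cytb from mitochondrial DNA and Ndufv3, Ndufs8, Ndufb1, Uqcrh, Uqcrb, Atp5mf, Atp5pf and Atp5mj from nuclear DNA. The calls depended on the model and the tool. In edgeR without the litter block 0 of the 95 passed, beside 0.243% of all genes. In DESeq2 with litter in its design 0 passed, beside 2.74% of all genes. At an unadjusted p under 0.05, in either direction, there were 9 of the 95 without the block and 9 in DESeq2. Over all 14834 tested genes these counts were 1359 and 1277. The calls also depended on the litters. In edgeR without litter 1, 0 of the 95 passed, while 3.28% of all genes were called lower. In that fit 13 of the 95 were at an unadjusted p under 0.05, beside 2604 of all 14834 genes. Without litter 3 only mt-Nd4l passed (2.95% of all genes). Without litter 2, 19 passed (5.45% of all genes), among them 8 of the 10 but neither Ndufs8 nor Ndufv3.

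Mitochondrially encoded mRNAs together were lower at high adhesion in litters 1 and 3 and higher in litter 2. They took 0.909%, 0.949% and 1.08% of counts at high adhesion in litters 1, 2 and 3, against 1.22%, 0.858% and 1.18% at low adhesion. The high adhesion library was the lower of its pair in litters 1 and 3 and the higher in litter 2, and the groups overlapped. Exact (Clopper-Pearson) 95% binomial intervals reached at most 0.00595 percentage points either side of these shares and cover counting error only. The mean share was 0.98% ± 0.0914 at high adhesion and 1.08% ± 0.197 at low adhesion (SD, n = 3 each), a difference of -0.103 percentage points that became -0.00103 without litter 1. Nuclear encoded genes took 1.27%, 1.32% and 1.32% of counts at high adhesion and 1.33%, 1.34% and 1.37% at low adhesion. These shares did not overlap, although the high adhesion shares differed by -0.0572, -0.0228 and -0.0523 percentage points from their partners, with intervals of at most 0.0063 points either side. Counts of mitochondrially encoded genes per count of nuclear encoded genes were 0.715, 0.721 and 0.822 at high adhesion and 0.916, 0.641 and 0.859 at low adhesion.

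**Figure D1:**
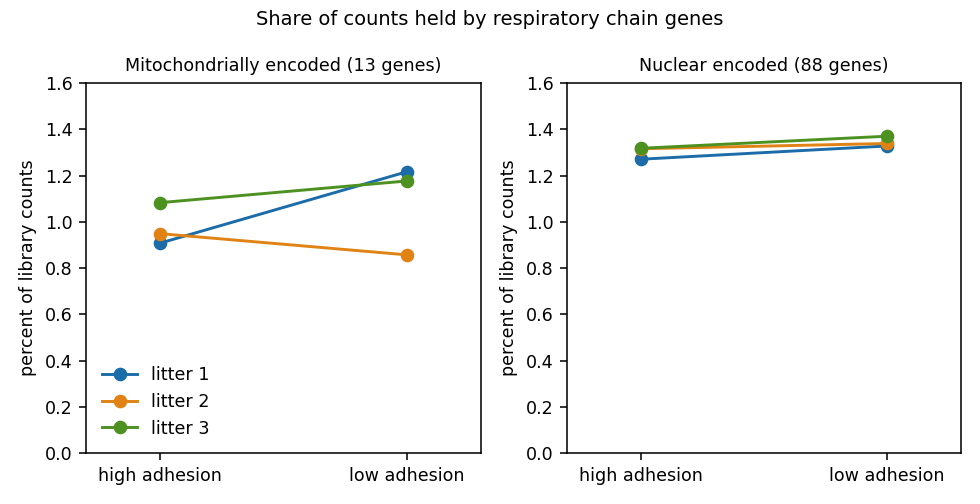
Percent of all counts in each library held by the 13 mitochondrially encoded (left) and 88 nuclear encoded (right) genes, at high and low adhesion, with a line joining the 2 libraries of a litter. The mitochondrial share spans 0.858% to 1.22% and its lines cross, while the nuclear share stays between 1.27% and 1.37% and is lower at high adhesion in every litter.

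The median log2 difference within a litter over the 13 mitochondrially encoded genes was -0.44 in litter 1, 0.04 in litter 2 and -0.14 in litter 3, with 13, 3 and 12 of the 13 genes lower at high adhesion. Over the 82 nuclear encoded genes the medians were -0.09, -0.02 and -0.07, with 67, 50 and 60 genes lower. The nuclear medians were the smaller in size in each litter and were below 0 in all 3. Levels also varied less between libraries for nuclear genes: over all 6 libraries the coefficient of variation had a median of 5.29% over the 81 nuclear genes of at least 5 CPM and of 14.2% over the 13 mitochondrially encoded genes. Of the nuclear genes, 34 were lower at high adhesion in all 3 litters (41.5%, against 20.4% of all tested genes) and 4 were higher in all 3 (against 20.9%). Among the mitochondrially encoded genes 2 were lower in all 3 litters, the same mt-Nd4l and mt-Cytb that passed the test, and none was higher in all 3.

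Among the mitochondrially encoded subunits of complex I, mt-Nd4l (ENSMUSG00000065947), a small membrane subunit of the proton-pumping arm, had 33.7, 30.0 and 42.4 CPM at high adhesion in litters 1, 2 and 3 and 50.1, 34.4 and 46.9 CPM at low adhesion. It was the lower of the pair in every litter, though the groups overlapped because litter 2 was low in both. Its log2 fold change was -0.31 ± 0.07 (SE; adjusted p = 0.00752, edgeR quasi-likelihood test). The neighbouring mt-Nd4, another proton-pumping subunit, had 757, 736 and 812 CPM at high adhesion and 923, 696 and 913 CPM at low adhesion, lower at high adhesion in 2 of 3 litters (-0.12 ± 0.06, adjusted p = 0.206, edgeR). Both are read from a shared transcript in mammals, yet mt-Nd4 held 22.4, 24.5 and 19.2 counts per count of mt-Nd4l at high adhesion and 18.4, 20.2 and 19.5 at low adhesion.

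The reading frames of mt-Nd4l and mt-Nd4 overlap, as do those of mt-Atp8 and mt-Atp6, so reads in the shared bases belong to both genes. The sequences show these junctions 5′ to 3′ on the plus strand of mitochondrial DNA (GENCODE M21 transcripts, GRCm38), with the shared bases in capitals. The mt-Nd4l end and mt-Nd4 start share 7 bases at chrM:10147-10193, and the mt-Atp8 end and mt-Atp6 start share 43 bases at chrM:7907-7989, in genes of 204 and 681 bases. Counts of mt-Nd4l and mt-Atp8 were fractional in 4 of 6 libraries and those of mt-Atp6 in 5, so their split between neighbours is uncertain.
mt-Nd4l and mt-Nd4: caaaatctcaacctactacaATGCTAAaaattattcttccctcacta
mt-Atp8 and mt-Atp6: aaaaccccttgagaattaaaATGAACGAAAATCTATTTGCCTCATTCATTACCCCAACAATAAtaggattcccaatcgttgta

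The other 5 complex I subunits from mitochondrial DNA did not pass. mt-Nd3, a small subunit of the membrane arm, had 720, 745 and 739 CPM at high adhesion and 741, 724 and 740 CPM at low adhesion. It was the steadiest of the 13, with a coefficient of variation of 1.4% over the 6 libraries and a log2 fold change of 0.00 ± 0.04 (SE). mt-Nd1 had 1524, 1679 and 1830 CPM at high adhesion and 2079, 1500 and 2050 CPM at low adhesion (-0.15 ± 0.17, adjusted p = 0.74, edgeR). mt-Nd1, which lies where ubiquinone enters the complex, shows the common pattern of the set, lower at high adhesion in litters 1 and 3 and higher in litter 2. mt-Nd2 and mt-Nd5, also proton-pumping subunits, followed it with -0.14 ± 0.07 and -0.21 ± 0.17. mt-Nd6, the 1 protein gene on the opposite strand of mitochondrial DNA, was at 16.5 to 19.1 CPM at high adhesion and 18.9 to 22.4 CPM at low adhesion (-0.21 ± 0.09, adjusted p = 0.142, edgeR).

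Cytochrome b, mt-Cytb (ENSMUSG00000064370), the mitochondrially encoded subunit of complex III, had 1074, 1012 and 1106 CPM at high adhesion and 1310, 1013 and 1218 CPM at low adhesion. The 2 libraries of litter 2 were nearly level, and litters 1 and 3 carried the difference of -0.14 ± 0.04 (SE; adjusted p = 0.0388, edgeR). Within litters 1, 2 and 3 the log2 differences were -0.29, -0.00094 and -0.14, a spread that this SE does not measure. Of the catalytic subunits of cytochrome oxidase (complex IV), mt-Co2 had 744, 708 and 794 CPM at high adhesion and 955, 707 and 860 CPM at low adhesion, missing the threshold at -0.16 ± 0.05 (adjusted p = 0.0903, edgeR). mt-Co1 was at -0.19 ± 0.13. mt-Co3, the highest per kilobase of the 13 at 3064 CPM per kb, had 2025, 2342 and 2671 CPM at high adhesion and 2751, 1858 and 2766 CPM at low adhesion (-0.05 ± 0.21). Litter 2 ran against the other two for mt-Co3, and without litter 1 its fold change turned to 0.14.

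mt-Atp6, the proton channel subunit of the ATP synthase, varied most of the 13. It had 732, 955 and 1216 CPM at high adhesion and 1498, 691 and 1470 CPM at low adhesion. The high adhesion library was the lower of the pair in litters 1 and 3, by -1.03 and -0.27 on the log2 scale, and the higher in litter 2, by 0.47. The highest library was 2.17 times the lowest, and the fitted change of -0.28 ± 0.42 (SE) was far from the threshold (adjusted p = 0.811, edgeR). mt-Atp8, a small subunit whose gene overlaps that of mt-Atp6 in the bases printed in capitals, had 16.6, 18.3 and 20.8 CPM at high adhesion and 23.7, 17.7 and 22.9 CPM at low adhesion (-0.21 ± 0.09, adjusted p = 0.17, edgeR). Counts of mt-Atp6 per count of mt-Atp8 were 44.0, 52.1 and 58.4 at high adhesion and 63.3, 39.0 and 64.2 at low adhesion. The ratio was lowest in the low adhesion library of litter 2, which also had the least mt-Atp6, and the groups overlapped.

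**Figure D2:**
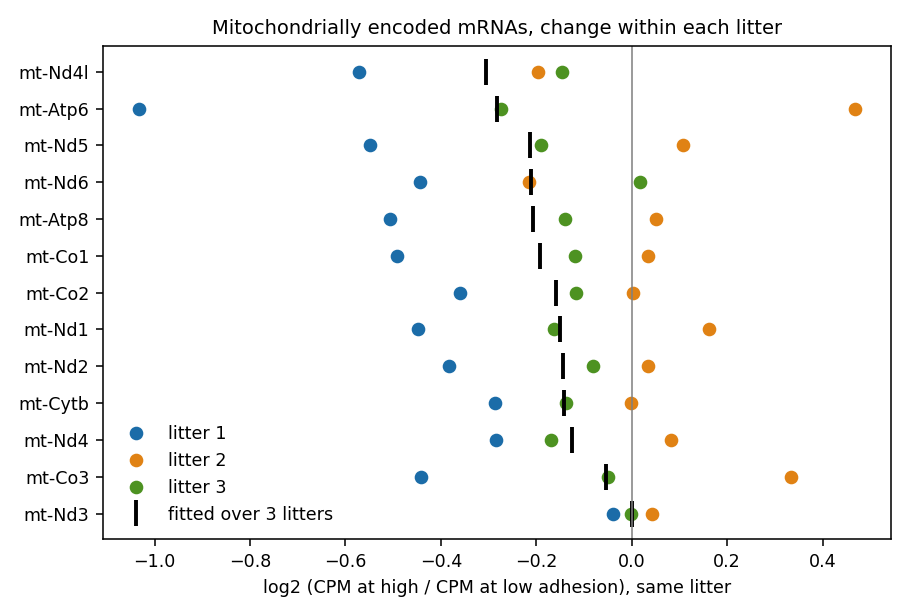
Log2 ratio of CPM at high over low adhesion within each litter for the 13 mitochondrially encoded mRNAs (coloured points), with the fitted log2 fold change (black bar). Litter 1 lies to the left for every gene, litter 2 is near or above 0 for most, and mt-Atp6 spreads from -1.03 to 0.47 while mt-Nd3 stays near 0.

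Among the 82 nuclear encoded genes, 8 fell (9.76%, against 4.83% of all tested genes) and 74 did not pass. Between the groups, 17 genes did not overlap with high adhesion below (20.7%, against 7.63% of all tested genes) and 2, Uqcrq and Cox5a, with high adhesion above (2.44%, against 7.96%). The median fold, high over low, was 0.962 over the 82 genes, and the 8 that passed had folds of 0.858 to 0.903. Counts were fractional in at least 1 library for 70 of the 82, and in all 6 libraries for 11, among them Ndufb1 and Uqcrb. Of the others that passed, Atp5mf had fractional counts in 5 libraries, Atp5mj in 3, and Atp5pf and Uqcrh in 2 each. Only Ndufs8 and Ndufv3 had whole counts throughout. Fractional values are uncertain because reads may be shared with other rows.

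Complex I, which oxidises NADH, had 37 tested nuclear subunits, of which 3 fell (8.11%, against 4.83% of all tested genes). Of the 37, 35 had fold changes below 0 (94.6%, against 50.4% of all tested genes), and the median of the 37 was -0.06. Ndufs8 (ENSMUSG00000059734), a core subunit that carries iron-sulfur clusters, had 48.4, 51.4 and 54.3 CPM at high adhesion and 56.9, 59.3 and 59.2 CPM at low adhesion. Every high adhesion library lay below every low adhesion one, with a log2 fold change of -0.19 ± 0.06 (SE; adjusted p = 0.0388, edgeR). Ndufv3 (ENSMUSG00000024038), an accessory subunit near the NADH-binding flavoprotein, had 26.7, 24.97 and 27.4 CPM at high adhesion and 30.6, 32.2 and 29.5 CPM at low adhesion. These groups did not overlap either (-0.22 ± 0.07, adjusted p = 0.0495, edgeR). Ndufv3 lost its call with limma-voom (adjusted p = 0.0521), in edgeR with no filter on low counts (0.0523) and without litter 1, 2 or 3 (0.122, 0.28 and 0.0663). Ndufs8 also lost its call without each litter in edgeR (adjusted p = 0.23, 0.0739 and 0.0967). Ndufb1 (ENSMUSG00000113902), an accessory subunit of the membrane arm, had 96.9, 102 and 111 CPM at high adhesion and 118, 108 and 124 CPM at low adhesion. It was lower in all 3 litters but the groups overlapped (-0.18 ± 0.05, adjusted p = 0.0217, edgeR), and its counts were fractional in 6 of 6 libraries.

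The 7 core catalytic subunits of complex I from nuclear DNA had a median log2 fold change of -0.03, and the 30 accessory subunits, which surround the core, one of -0.06. All 30 accessory subunits had fitted fold changes below 0, from -0.22 to 0.00, against 50.4% of all tested genes. Only Ndufv3 and Ndufb1 passed (6.67%, against 4.83% of all tested genes). In litter 2, 15 of the 30 were lower at high adhesion and 15 higher, and 12 were lower in all 3 litters (40%, against 20.4% of all tested genes). With an offset for transcript length and GC content their median was -0.03, and Ndufa5, Ndufa6 and Ndufs4 were above 0. Of the core, Ndufs1 and Ndufs7, both iron-sulfur proteins, were level at 0.02 ± 0.07 and 0.00 ± 0.06 (SE). The most abundant row by CPM was Ndufa4, which is counted among the 30 by its complex I name but is now placed in cytochrome oxidase. It had 554, 568 and 591 CPM at high adhesion and 598, 567 and 647 CPM at low adhesion (-0.08 ± 0.04, adjusted p = 0.236, edgeR). Next came Ndufb6, an accessory subunit, at 182 to 192 CPM at high adhesion and 188 to 199 CPM at low adhesion (-0.05 ± 0.04).

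Complex II, succinate dehydrogenase, which also works in the citric acid cycle, had no gene past the threshold among its 4. Sdha, its flavoprotein, had 65.3, 69.1 and 65.6 CPM at high adhesion and 67.4, 77.0 and 72.9 CPM at low adhesion (-0.12 ± 0.05, adjusted p = 0.193, edgeR). The lowest low adhesion library lay among the high adhesion ones. The membrane anchors Sdhc and Sdhd were at -0.05 ± 0.05 and -0.02 ± 0.05, and the iron-sulfur subunit Sdhb at -0.02 ± 0.05 (SE).

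Complex III, the cytochrome bc1 complex, had 8 nuclear genes, of which 2 fell (25%, against 4.83% of all tested genes). Both are among its 5 small subunits, which had a median of -0.11. Of the 5, 4 were lower in all 3 litters (80%, against 20.4% of all tested genes). Uqcrh (ENSMUSG00000063882), the acidic hinge protein at the cytochrome c1 side, had 178, 206 and 189 CPM at high adhesion and 208, 217 and 210.5 CPM at low adhesion. Its groups were close but did not overlap (-0.16 ± 0.04, adjusted p = 0.0195, edgeR). Uqcrb (ENSMUSG00000021520), a small matrix-side subunit, had 180, 180 and 192 CPM at high adhesion and 203, 200 and 211 CPM at low adhesion. All high adhesion values lay below all low adhesion values (-0.15 ± 0.04, adjusted p = 0.0161, edgeR), with fractional counts in 6 of 6 libraries. Uqcrq, also small and bound to cytochrome b, ran the other way, with 306, 307 and 313 CPM at high adhesion and 304, 279 and 297 CPM at low adhesion (0.08 ± 0.04, adjusted p = 0.296, edgeR). The Rieske protein Uqcrfs1 and the core proteins Uqcrc1 and Uqcrc2 were at 0.07 ± 0.05, -0.06 ± 0.05 and 0.04 ± 0.05 (SE), none past the threshold.

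In complex IV, cytochrome oxidase, none of the 14 tested nuclear genes passed. Of these, 7 had fold changes above 0 and 7 below, with a median of 0.00; 1 was at an unadjusted p under 0.05 in edgeR, lower, and DESeq2 also called none. Cox4i1, the largest nuclear subunit, had 378, 384 and 380 CPM at high adhesion and 381, 384 and 373 CPM at low adhesion. These values interleave, with means of 381 ± 2.89 and 380 ± 6.1 CPM (SD, n = 3 each). Cox6a1, a regulatory subunit, had 296, 296 and 299 CPM at high adhesion and 296, 290.5 and 303 CPM at low adhesion (0.01 ± 0.04). Cox5a, a matrix-side subunit, had 458, 473 and 449 CPM at high adhesion and 447, 445 and 429 CPM at low adhesion. Every high adhesion library of Cox5a lay above every low adhesion one, by 0.06 ± 0.04, which did not pass (adjusted p = 0.368, edgeR). Cox7b, a small membrane subunit, had the lowest p of the complex and was at -0.09 ± 0.04 (adjusted p = 0.204, edgeR).

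Several complex IV subunits have tissue-specific isoforms, and in the stroma the ubiquitous form of each pair was the higher. Per kilobase of transcript and averaged over all 6 libraries, Cox4i1 was at 631 CPM per kb and its hypoxia-linked partner Cox4i2 at 1.17. Cox6a1 was at 499 CPM per kb and the heart and muscle form Cox6a2 at 0.559, and Cox7a2 was at 454 and the muscle form Cox7a1 at 0.70. Cox8a was at 414 CPM per kb and the muscle form Cox8b at 0.805, and Cox6b1 at 674 and the testis form Cox6b2 at 16.6. None of the tested isoforms passed: Cox4i2 was at 0.16 ± 0.35, Cox6b2 at 0.09 ± 0.12, Cox6b1 at -0.02 ± 0.04, Cox7a2 at -0.06 ± 0.04, Cox8a at 0.04 ± 0.04 and Cox7a2l, which joins complexes III and IV into supercomplexes, at 0.07 ± 0.05 (SE).

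Complex V, the ATP synthase, had 19 nuclear gene rows, of which 3 fell (15.8%, against 4.83% of all tested genes), 12 were lower at high adhesion in all 3 litters (63.2%, against 20.4%) and 9 did not overlap with high adhesion below (47.4%, against 7.63%). Their median was -0.08, and the 3 that fell were 1 of 5 rows of the peripheral stalk and 2 of 5 small membrane subunits; of the complex, only Atp5mf passed in a fit with an offset for transcript length and GC content. Atp5pf (ENSMUSG00000022890), coupling factor 6 of the peripheral stalk, had 254, 264 and 265 CPM at high adhesion and 284, 288 and 296 CPM at low adhesion. There was a clear gap between the groups (-0.15 ± 0.04, adjusted p = 0.0155, edgeR), and the same order held for both rows named Atp5po, the stalk subunit that joins the head, at -0.12 ± 0.04 and -0.13 ± 0.06. Those rows share a symbol and fractional counts, so their split is uncertain. All 5 rows of the peripheral stalk were lower in all 3 litters, and 1 passed.

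All 5 small membrane subunits of the ATP synthase were lower in all 3 litters with groups that did not overlap, and 2 of them passed. Of all tested genes, 20.4% were lower in all 3 litters, 7.63% did not overlap with high adhesion below and 4.83% were called lower. With the offset for transcript length and GC content 1 of the 5 passed, and in DESeq2 or without the block 0 passed. Atp5mf (ENSMUSG00000038690), subunit f, had 194, 210 and 200 CPM at high adhesion and 216, 222 and 232 CPM at low adhesion (-0.15 ± 0.04, adjusted p = 0.0187, edgeR). Atp5mj (ENSMUSG00000021290), a small proteolipid at the base of the enzyme, had 157, 166 and 161 CPM at high adhesion and 172, 182 and 182 CPM at low adhesion (-0.15 ± 0.04, adjusted p = 0.0271, edgeR). Both kept high adhesion below low adhesion in each litter. Atp5me and Atp5mg, which help the enzyme form dimers, and Atp5mk were at -0.11 ± 0.04, -0.13 ± 0.05 and -0.07 ± 0.04 (SE) and did not pass.

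The 5 genes of the catalytic F1 head stayed near 0, with a median of -0.02 and none past the threshold or lower in all 3 litters. Atp5f1b, the catalytic beta subunit, had 612, 613 and 624 CPM at high adhesion and 622, 607 and 610 CPM at low adhesion (0.01 ± 0.04), the lowest coefficient of variation of the nuclear genes at 1.12%. The c ring, which turns as protons pass, is made from 3 genes with the same mature protein. Per kilobase, Atp5mc3 was at 994, Atp5mc2 at 101 and Atp5mc1 at 41.1 CPM per kb. Their log2 fold changes were -0.08 ± 0.05, -0.13 ± 0.06 and -0.02 ± 0.05 (SE), and none passed. The inhibitor Atp5if1, which stops the enzyme from running backwards, had 134, 147 and 138 CPM at high adhesion and 141, 153 and 145 CPM at low adhesion (-0.07 ± 0.04, adjusted p = 0.434, edgeR).

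**Figure D3:**
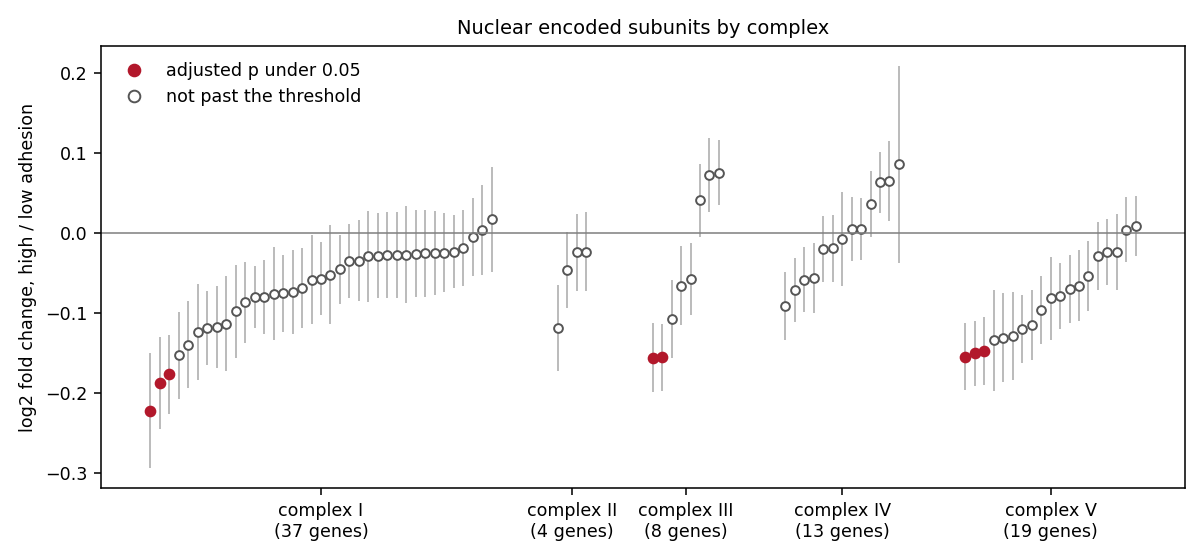
Fitted log2 fold change, high over low adhesion, with its standard error (vertical line) for the 81 nuclear encoded genes of at least 5 CPM, ordered within each complex; filled points passed an adjusted p of 0.05. Complexes I and V lie mostly below 0, complex IV lies on both sides, and all 8 filled points are below -0.14.

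**Figure D4:**
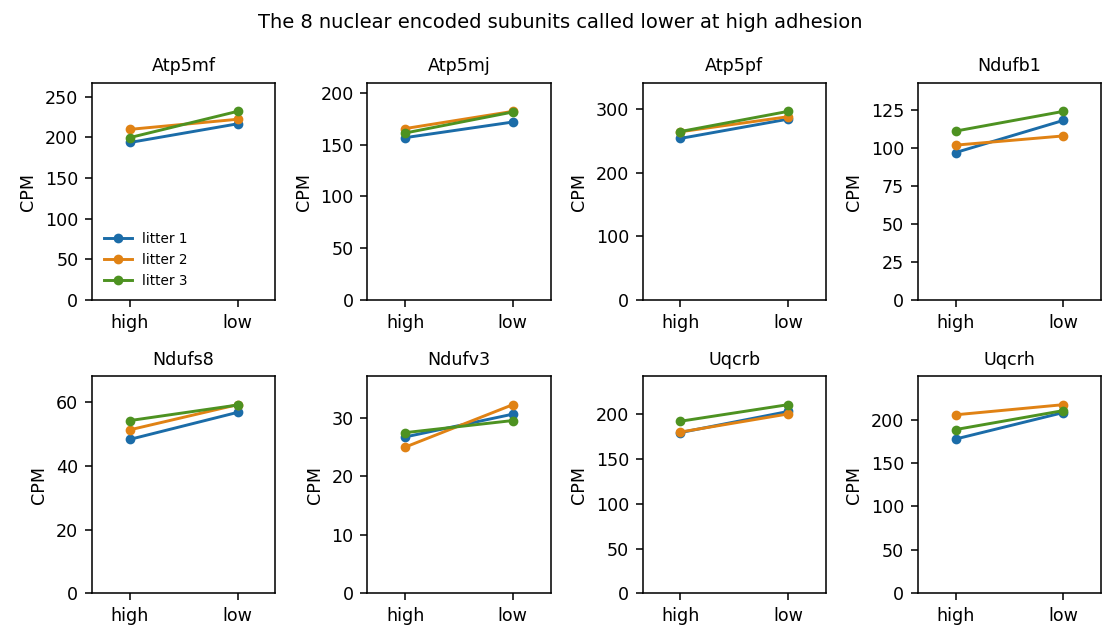
CPM of the 8 nuclear encoded genes that passed, at high (left) and low (right) adhesion, with a line joining the 2 libraries of a litter and axes starting at 0. Every line is higher at low adhesion, and only Ndufb1 overlaps between groups.

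Litters differed as well as adhesion. An edgeR test of the litter terms in the same model passed for 10 of the 95 genes (10.5%), against 17.9% of all tested genes, and for 4 of the 13 mitochondrially encoded ones: mt-Nd4l, mt-Cytb, mt-Co2 and mt-Nd4. The clearest was the c ring gene Atp5mc1, with 90.3, 134 and 102 CPM at high adhesion and 93.9, 137 and 101 CPM at low adhesion in litters 1, 2 and 3 (adjusted p = 9.18e-08, edgeR). Litter 2 stood above the others in both groups, and high and low adhesion were level within a litter. The nuclear genes Cox7a2l, Cox5b, Cox5b-ps, Ndufa8 and Cox6b2 also passed. Cox5b-ps is named as a pseudogene of Cox5b although its row is listed as protein coding, and both had fractional counts in 5 libraries.

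The nuclear encoded genes have short transcripts, and short transcripts as a class were slightly lower at high adhesion. The 81 nuclear genes of at least 5 CPM had a median length of 698 bases, against 1686 bases over the 9978 tested genes of at least 5 CPM with a length. Under 750 bases, all 921 tested genes had a median log2 fold change of -0.04 and the 42 respiratory genes one of -0.07, with 5 of the 8 that passed. From 750 to 1000 bases the medians were -0.01 over 1076 genes and -0.06 over 21 respiratory genes. For 1000 to 1500 bases they were 0.01 over 2267 genes and -0.03 over 14. They were 0.01 over 3207 genes and -0.08 over 2 from 1500 to 2500 bases. Longer transcripts had medians of -0.01 over 2507 genes and -0.03 over 2. Of all genes, 4.67% were called lower under 750 bases and 9.33% from 2500 bases up. Across the 9978 genes the rank correlation (Spearman) of length with fold change was only 0.017. With an offset per library fitted on transcript length and GC content, the median of the nuclear genes was -0.03 and that of the mitochondrially encoded genes -0.10. In that fit 5 of the 82 nuclear genes passed, and the same 5 were all that passed of the 95. Of all 14834 tested genes 769 were called lower (5.18%), so the share of the 95 was near that of all genes. The 5 were Ndufs8, Ndufv3, Ndufb1 and Atp5mf again, and Ndufa13, an accessory subunit of complex I, at -0.19. Neither mt-Nd4l nor mt-Cytb passed with the offset (adjusted p = 0.0517 and 0.0883, edgeR), and no complex III gene did.

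**Figure D5:**
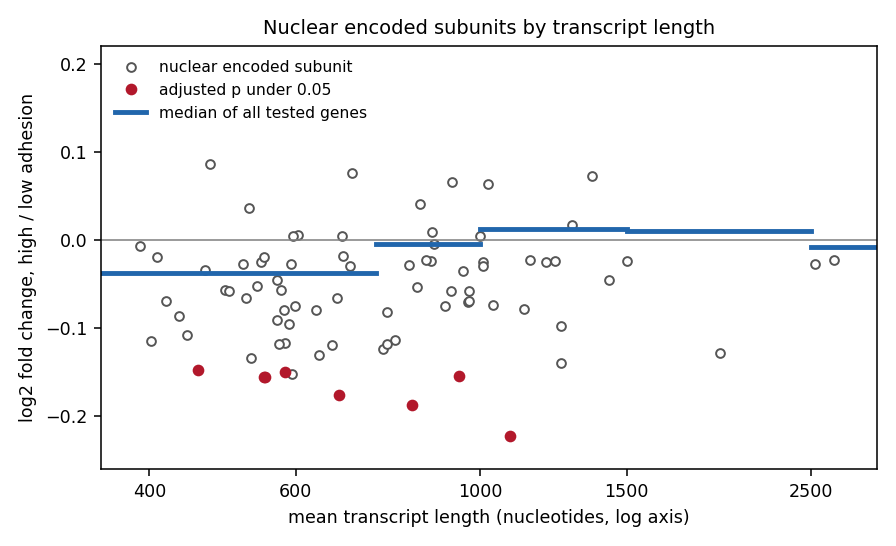
Fitted log2 fold change, high over low adhesion, of the 81 nuclear encoded genes of at least 5 CPM against mean transcript length (log axis), with the median of all tested genes in each length class as a blue line. Below 750 bases the median of all genes is -0.04, and that of the 42 respiratory genes there is -0.07.

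Promoters of respiratory genes are known for sites of the activators NRF1 and GABPA and of YY1. RefSeq gave a promoter (GRCm38.p6) for 71 of the 88 nuclear encoded genes, 67 of them tested. Only the first start listed for each gene was searched. The 27025 promoters set beside the 67 came from all listed genes, including ones not tested here, so the 2 sets are not alike. Shares over promoters of tested genes only were not computed. In the 250 bases before the start, on both strands, the letters GCATGCGC (NRF1) were found in 8 of 67 (11.9%, against 2.32% of 27025 promoters), CCGGAAG (GABPA) in 11 (16.4%, against 7.05%) and AAGATGG (YY1) in 0 (against 4.53%). None of these motifs contains another. At least 1 was found in 17 of 67 (25.4%, against 13.1%), and in 1 of the 6 genes that fell and had a promoter. That gene was Uqcrh, shown first. Cox6a1, level between the groups, and Atp5mg, at -0.13 without passing, are shown because they carry both the NRF1 and the GABPA letters. Matches are in capitals, 5′ to 3′ in the direction of the gene, all on the minus strand: Uqcrh at chr4:116075071-116075320, Cox6a1 at chr5:115348959-115349208, where 2 NRF1 matches on opposite strands overlap, and Atp5mg (Atp5l in RefSeq) at chr9:44920743-44920992.
Uqcrh: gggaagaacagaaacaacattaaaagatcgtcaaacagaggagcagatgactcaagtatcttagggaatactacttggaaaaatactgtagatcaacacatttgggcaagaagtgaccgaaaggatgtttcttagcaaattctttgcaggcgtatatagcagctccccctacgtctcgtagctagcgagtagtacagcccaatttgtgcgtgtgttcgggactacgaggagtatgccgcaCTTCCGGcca
Cox6a1: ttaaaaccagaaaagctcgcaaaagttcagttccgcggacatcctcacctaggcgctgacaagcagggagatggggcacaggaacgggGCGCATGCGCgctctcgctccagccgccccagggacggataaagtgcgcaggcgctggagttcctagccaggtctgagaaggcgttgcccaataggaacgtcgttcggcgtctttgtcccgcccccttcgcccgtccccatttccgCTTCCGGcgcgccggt
Atp5mg: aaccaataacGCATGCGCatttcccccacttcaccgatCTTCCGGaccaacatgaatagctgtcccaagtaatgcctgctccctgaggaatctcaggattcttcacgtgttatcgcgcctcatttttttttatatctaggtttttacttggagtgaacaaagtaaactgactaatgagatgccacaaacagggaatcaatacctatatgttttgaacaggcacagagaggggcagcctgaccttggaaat

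Other genes of the pathway were read in the same edgeR model, list by list, and the share of all tested genes was 4.83% lower and 4.71% higher. Of the 50 tested assembly factors, which build the complexes, 3 fell (6.0%) and 1 rose (2.0%), shares near or below those of all genes (median 0.00). Cox20, a chaperone of the cytochrome oxidase subunit encoded by mt-Co2, had 19.1, 23.6 and 18.3 CPM at high adhesion and 23.5, 30.0 and 25.97 CPM at low adhesion. It was lower in every litter and had the largest fall in the list (-0.38 ± 0.08, adjusted p = 0.00107, edgeR), a call kept without any 1 litter. Uqcc5 and Uqcc2, assembly factors of complex III, fell by 0.28 and 0.17 on the log2 scale, and the copper chaperone Sco1 rose by 0.27. Of the 10 electron carriers and subunits outside the name rule none passed in edgeR or DESeq2, and 1 was at an unadjusted p under 0.05 in edgeR, higher (median -0.07). Cytochrome c (Cycs), which carries electrons from complex III to IV, was level at 272, 283 and 283 CPM at high adhesion and 279, 265 and 289 CPM at low adhesion. Of 13 ubiquinone synthesis genes, 1 fell (7.69%), Coq10b, a ubiquinone-binding protein, at -0.18 ± 0.05.

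Most genes that copy and handle mitochondrial RNA did not pass. Among 17 genes of mitochondrial DNA transcription and replication 1 passed each way (5.88% each, against 4.83% of all genes lower and 4.71% higher): the single-strand binding protein Ssbp1 fell (-0.22 ± 0.06) and Mterf4, which works in mitochondrial ribosome assembly, rose (0.40 ± 0.12). Of 20 mitochondrial RNA processing genes 3 rose (15%, against 4.71% of all genes) and none fell, with 1 lower at an unadjusted p under 0.05 in edgeR and none lower in DESeq2: the exonuclease Rexo2 (0.17 ± 0.04), Elac2, which cuts the 3′ ends of tRNAs out of precursors (0.27 ± 0.07), and Tbrg4, which stabilises mitochondrial mRNAs (0.21 ± 0.07). Of 12 translation factors 1 fell (8.33%), the initiation factor Mtif2 (-0.50 ± 0.15), with fractional counts in 6 libraries. Of 78 mitochondrial ribosomal proteins 1 fell (1.28%, against 4.83% of all genes), Mrpl33 (-0.28 ± 0.07), and the median was 0.01.

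Among 11 tested regulators of respiratory genes, 1 rose (9.09%, against 4.71% of all genes). Ppargc1b, a coactivator that raises mitochondrial gene expression, had 5.42, 8.59 and 5.68 CPM at high adhesion and 3.27, 3.64 and 3.40 CPM at low adhesion. It was 1.9-fold higher, with no overlap between groups (0.93 ± 0.15, adjusted p = 0.00012 in edgeR and 0.0441 in DESeq2), and passed without any 1 litter. Of 26 citric acid cycle and pyruvate genes, 3 rose (11.5%, against 4.71% of all genes) and 2 fell (7.69%, against 4.83%), with a median of 0.00. Idh3a, Dlat and Dlst, subunits of isocitrate, pyruvate and oxoglutarate dehydrogenase, rose by 0.18, 0.19 and 0.16 on the log2 scale, while Ogdh, the partner of Dlst, and Idh2 fell by 0.18 and 0.16. In a list of 18 outer membrane, import and chaperone genes, which also holds the inner membrane phosphate carrier Slc25a3, 2 rose (11.1%, against 4.71%). These were Slc25a3 (0.14 ± 0.04) and the outer membrane channel Vdac2 (0.14 ± 0.04). Of 10 fusion and fission genes 1 fell (10%, against 4.83%), Fis1 (-0.15 ± 0.05). Cox20 lost its call in DESeq2 (adjusted p = 0.106) and in edgeR without the block (0.381), and Ppargc1b without the block (0.19). Every other gene of these lists that passed lost its call in DESeq2, without the block and without at least 1 litter.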

How the data were processed

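STAR 2.7.11 and featureCounts (Subread 2.1.1) were used by the authors on build GRCm39, per the submitters' processing notes, which also name fastp 0.24.0, SAMtools 1.22.1, FastQC 0.12.1 and MultiQC 1.32. Strand setting, annotation release and how multi-mapping reads were treated were not given in the sources used here, so overlapping and antisense genes cannot be told apart. The authors deposited estimated counts per gene, unscaled and fractional for 7736 to 8256 genes per library. They also deposited CPM, which differ from CPM computed from that table's counts by at most 5.1e-11.

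Counts were rounded and fitted with edgeR 4.0.16 in R 4.3.3 (filterByExpr, TMM factors 0.989 to 1.01, robust quasi-likelihood, litter as a block, two-sided, threshold 0.05). Printed CPM use TMM-scaled totals, and standard errors are log2 fold changes divided by the root of F. The design text states that samples are litter-matched, and same-litter libraries deviated together (r = 0.575, 0.576 and 0.361 across genes, against -0.488 to -0.0842 between litters). Deviations were taken from each group's mean and sum to 0. Positive values within litters therefore bring negative ones between litters, which are not separate support for the pairing. Each replicate is a litter, a pool of kidneys. The coefficient of biological variation was 4.07% with the block and 10.7% without. The fit was tested on simulated data. The planted folds were all larger than those of the respiratory chain genes that passed, so recovery of changes of their size was not tested.

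Transcript length and GC content came from GENCODE M21 (GRCm38) by identifier, for 94.8% of tested genes. Alternatives used DESeq2 1.42.0, limma 3.58.1 (voom), mgcv 1.9.3 (length and GC offset), other filters and scalings, and 1 litter left out at a time. Pathway lists, markers and members were chosen with earlier results of these data known. Named genes were all mitochondrially encoded genes, every nuclear gene that passed, the 2 highest by CPM and the lowest p per complex, isoform pairs, and up to 3 passing genes per list or else its most abundant. Other genes named were chosen after their values were seen. No p was computed for scores over the genes: 3 pairs cannot go below 0.25 in a two-sided exact sign permutation.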

Additional observations from a re-analysis of the deposited data

How the results depend on the processing

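The call counts depended on the model more than the fold changes did. Over all genes 1416 passed with the replicate block, 36 without it and 406 in DESeq2, and in the last 2 the counts for mitochondrially encoded genes (2), nuclear encoded genes (8), complex I (4), complex III (3) and complex V (3) were 0. The coefficient of biological variation, estimated over all genes, was 4.07% with the block and 10.7% without it. The cause of the lost calls was not tested, either for the fit without the block or for DESeq2. DESeq2 called 2 genes between litters in place of 10. Leaving out each litter gave 844 to 1557 genes in all, 0 to 7 mitochondrially encoded, 0 to 12 nuclear encoded, 0 to 7 in complex I, 0 to 3 in complex III, 0 to 2 in complex IV (0 with all litters) and 0 to 7 in complex V. Each such fit had 4 libraries. With no filter on low counts 6 mitochondrially encoded and 2 complex IV genes passed. With the length and GC offset the counts were 0 mitochondrially encoded, 5 nuclear encoded, 0 in complex III and 1 in complex V; the cause was not tested. No gene of the 95 passed as higher in any of the 12 alternatives.

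The median of the nuclear genes ran from -0.089 to -0.050 and that of the mitochondrially encoded genes from -0.25 to -0.04 with 1 litter left out. The difference in nuclear share was -0.0441 percentage points, -3.28% of the low adhesion mean. The 17 nuclear genes with whole counts in 6 libraries hold a far smaller share, 0.138% at high and 0.14% at low adhesion. Their share differed by -0.00214 points, -1.53% of the low adhesion mean. For these genes the groups overlapped, with differences of -0.00308, -0.00319 and -0.000138 points in litters 1, 2 and 3.

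Of 502 values for named genes over the alternatives, 22 changed sign, none past the threshold. With 1 litter left out they ranged from -0.0041 to 0.025 for Atp5f1b, -0.0059 to 0.014 for Cox4i1, -0.19 to 0.15 for Cox4i2, -0.0091 to 0.016 for Cox6a1, -0.059 to 0.016 for Cox6b1, -0.053 to 0.22 for Cox6b2, -0.051 to 0.0060 for Sdhd, -0.65 to 0.092 for mt-Atp6, -0.25 to 0.14 for mt-Co3 and -0.023 to 0.020 for mt-Nd3. Litter 1 was the one left out for Cox6b1, Cox6b2, Sdhd, mt-Atp6, mt-Co3 and mt-Nd3, litter 2 for Cox6a1, and litter 3 for Atp5f1b, Cox4i1, Cox4i2 and mt-Nd3. With no filter it was Cox6a1 (-3.9e-07), and with the length and GC offset Cox6a1 (-0.0046), Cox6b1 (0.019), Cox7a2 (0.0022), mt-Co3 (0.012) and mt-Nd3 (0.098). mt-Nd3 was also at 4.3e-05 without the block, 0.00055 with RLE size factors and with DESeq2, 0.00039 over genes of at least 5 CPM and 4.4e-05 with unrounded counts.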

Other observations

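The 2 ribosomal RNAs of mitochondrial DNA, left out of the set because they encode no protein, were counted in the same libraries. mt-Rnr2, the large ribosomal RNA, had 7003, 6788 and 6480 CPM at high adhesion and 9010, 7124 and 7799 CPM at low adhesion. Its groups did not overlap, and it was lower at high adhesion in every litter, litter 2 included (log2 fold change -0.23 ± 0.04, SE; adjusted p = 0.00212, edgeR quasi-likelihood test). mt-Rnr1, the small ribosomal RNA, had 1292, 1034 and 1284 CPM at high adhesion and 1991, 1179 and 1422 CPM at low adhesion. It was also lower in every litter, by -0.62, -0.19 and -0.15 on the log2 scale, but the groups overlapped and it did not pass (adjusted p = 0.357, edgeR). Libraries were made from captured mRNA, and the part of RNA capture in these values was not tested.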
